A study of Arabidopsis thaliana with 30 samples.

Results

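The subgroup Ib basic helix-loop-helix (bHLH) genes of Arabidopsis thaliana are BHLH38 (AT3G56970), BHLH39 (AT3G56980), BHLH100 (AT2G41240) and BHLH101 (AT5G04150). They were taken by gene identifier as 4 of the 27655 genes counted, and all 4 were among the 21256 genes abundant enough to be tested. Messenger RNA was measured in whole seedlings grown on solid Murashige and Skoog (MS) medium and used 12 days after germination. The genotypes were Col-0 wild type and ein2-5, a mutant in EIN2, through which the ethylene signal passes from the receptors to the nucleus. Seedlings of each genotype were covered with liquid MS, with liquid MS that held 20 µM of antimycin A (AA), which blocks complex III in mitochondrial respiration, for 3 h or 24 h, or were left untreated. These 10 groups held 3 libraries each. Covering with liquid is shared by the MS and AA groups, and the untreated seedlings, labelled 0 h, lacked it. Whether the replicates came from separate cultures is not given in the labels, so the p-values measure the spread between these libraries, which may be technical.

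Subgroup Ib genes are transcribed when a plant is short of iron. Their proteins pair with FIT, another bHLH protein, and the pair switches on the root genes that reduce and take up iron. Upstream of them, the bHLH proteins of subgroup IVc (BHLH34, BHLH104, ILR3 and BHLH115) and URI (BHLH121) promote their transcription, the ubiquitin ligase BTS marks some of those proteins for destruction, and the small IMA peptides hold BTS back. Mitochondria are large users of iron, since respiratory complexes carry it in haem and in iron-sulfur clusters.

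On the RefSeq annotation of the build TAIR10.1, all 4 genes lie on the minus strand. BHLH38 (chr3:21084035-21085245) and BHLH39 (chr3:21086390-21087710) are tandem neighbours with 1144 bases between them, and each has 2 exons. BHLH100 (chr2:17198037-17199454) also has 2 exons, and BHLH101 (chr5:1138410-1139633) has 3. The coding sequences of BHLH38 and BHLH39 were 84.8% identical over the aligned bases. BHLH100 shared 73.8% with BHLH38 and 74.9% with BHLH39, and BHLH101 shared between 58.2% and 58.5% with the other members. Over whole transcripts, untranslated parts included, the longest run of identical bases was 34 between BHLH38 and BHLH39 and 32 between BHLH39 and BHLH100. Every one of the 120 deposited values of these genes was a whole number. Read pairs that map to several places were given to each place in part, so no such fraction is visible in these genes.

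The 250 bases before each annotated start were read from the RefSeq TAIR10.1 genome to show what the promoters of genes with a common response share. They are printed 5′ to 3′ on the minus strand, from chr3:21085246-21085495, chr3:21087711-21087960, chr2:17199455-17199704 and chr5:1139634-1139883 in the order of the lines. Capitals mark E-boxes, the general bHLH recognition sequence CANNTG, of which the G-box CACGTG is a special case, so that each G-box is also counted as an E-box. Both strands were searched.
BHLH38: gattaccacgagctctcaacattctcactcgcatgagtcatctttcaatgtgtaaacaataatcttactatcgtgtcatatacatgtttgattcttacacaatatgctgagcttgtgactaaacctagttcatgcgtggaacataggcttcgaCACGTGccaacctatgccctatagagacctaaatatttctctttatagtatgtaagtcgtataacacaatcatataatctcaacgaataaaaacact
BHLH39: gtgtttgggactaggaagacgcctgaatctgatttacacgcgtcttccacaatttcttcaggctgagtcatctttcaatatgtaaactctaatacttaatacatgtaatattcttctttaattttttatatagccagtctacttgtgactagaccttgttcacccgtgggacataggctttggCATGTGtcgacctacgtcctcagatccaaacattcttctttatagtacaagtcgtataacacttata
BHLH100: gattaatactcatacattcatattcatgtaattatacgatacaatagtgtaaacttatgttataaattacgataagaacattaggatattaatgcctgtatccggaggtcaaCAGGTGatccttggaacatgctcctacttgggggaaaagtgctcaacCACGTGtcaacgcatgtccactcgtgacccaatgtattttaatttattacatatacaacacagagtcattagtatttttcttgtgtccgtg
BHLH101: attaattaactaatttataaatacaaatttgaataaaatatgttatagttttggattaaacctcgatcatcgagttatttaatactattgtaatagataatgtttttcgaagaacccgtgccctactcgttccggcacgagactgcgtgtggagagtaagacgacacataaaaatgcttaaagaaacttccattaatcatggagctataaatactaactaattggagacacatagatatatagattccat
BHLH38 and BHLH100 each hold a G-box, 97 to 92 and 91 to 86 bases before the start, and BHLH100 has a further E-box at 138 to 133 bases. BHLH39 holds an E-box 67 to 62 bases before its start and no G-box, and BHLH101 holds neither in this window. Among 27443 Arabidopsis promoters of the same length, 6.49% held a G-box and 55.3% an E-box, so an E-box is common. The mitochondrial dysfunction motif, to which ANAC017 and related NAC proteins bind, was found in none of these windows and in 1.75% of all promoters. The tandem pair was 73.1% identical over 219 aligned promoter bases, with a shared run of 16 bases, and the other pairs were between 52.0% and 60.0% identical.

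Total counts were 21219655 to 32603880 read pairs per library. Levels are counts-per-million values (CPM) on scaled library sizes, and changes are log2 fold changes ± SE from edgeR's quasi-likelihood test, with a Benjamini-Hochberg adjusted p under 0.05 over all tested genes taken as a call. EIN2 transcript had group means between 105 and 118 CPM in wild type and between 39.0 and 45.7 CPM in ein2-5. AOX1A, the alternative oxidase gene that marks mitochondrial stress, was higher with AA than with MS by 2.55 ± 0.15 at 3 h and 1.87 ± 0.15 at 24 h in wild type, and by 2.88 ± 0.15 and 1.77 ± 0.15 in ein2-5. Each library differed from the mean of its group mates by an SD of 0.327 to 0.415 log2 units over all tested genes. The exception was replicate 3 of ein2-5 with MS at 3 h, at 0.491. Markers of pollen and of seeds summed to at most 1.16 and 0.385 CPM in any library. The members were low in most groups, with counts as low as 8 to 40 per library, and reached 569 to 1914 in the highest one. Levels are not compared between members, because no gene lengths came with the counts.

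After 24 h of AA, every member was far higher than in MS of the same time, in both genotypes. BHLH38 read 29.8, 16.8 and 16.9 CPM in the 3 wild-type AA libraries and 0.443, 0.641 and 0.564 CPM in the MS libraries. In ein2-5 it read 49.0, 17.5 and 17.3 CPM with AA and 2.29, 0.867 and 0.730 CPM with MS. The lowest AA library thus lay well above the highest MS library in each genotype. BHLH39, the tandem neighbour, read 47.4, 27.3 and 28.9 CPM against 2.08, 1.83 and 2.08 CPM in wild type. In ein2-5 it read 50.8, 22.7 and 20.7 CPM against 3.78, 1.96 and 2.10 CPM. Again no AA library came near an MS library. BHLH100 read 50.9, 30.1 and 27.3 CPM against 0.488, 1.14 and 1.13 CPM in wild type, and 77.4, 31.4 and 36.0 CPM against 3.30, 1.06 and 0.902 CPM in ein2-5. BHLH101 read 17.6, 11.9 and 12.4 CPM against 0.665, 0.458 and 0.434 CPM in wild type, and 23.0, 11.4 and 12.0 CPM against 2.21, 1.70 and 2.49 CPM in ein2-5. For these members too the groups did not overlap, and BHLH101 in MS was higher in ein2-5 than in wild type, a difference tested below.

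**Figure D1:**
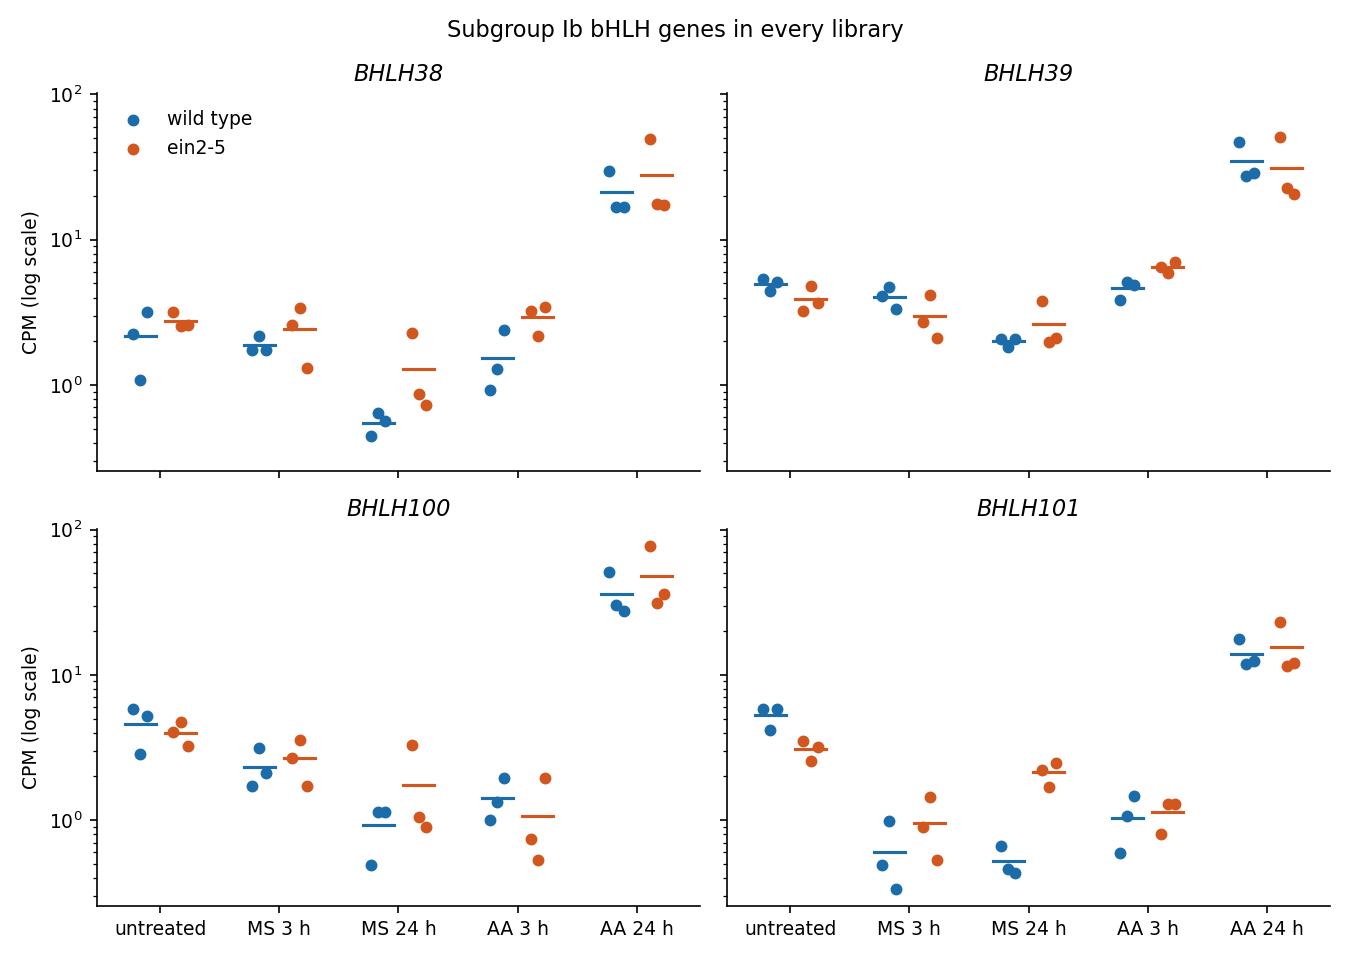
CPM (log axis) of BHLH38, BHLH39, BHLH100 and BHLH101 in all 30 libraries, by treatment and time. Points are libraries, bars are means of 3, blue is wild type and orange is ein2-5. All 6 AA 24 h libraries lie above all the others for each gene, and in ein2-5 with AA at 24 h 1 library stands above the other 2.

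The log2 changes at 24 h of AA in wild type were 5.25 ± 0.49 for BHLH38, 4.10 ± 0.31 for BHLH39, 5.29 ± 0.46 for BHLH100 and 4.73 ± 0.37 for BHLH101, that is between 17.2-fold and 39.0-fold. The adjusted p-values were between 5.79e-11 and 3.79e-09. All 4 members were called higher, where 6.48% of all tested genes were, and their median was 4.99 against 0.001 over all genes. In ein2-5 the changes were 4.42 ± 0.43, 3.58 ± 0.30, 4.78 ± 0.42 and 2.86 ± 0.30 in the same order, between 7.26-fold and 27.4-fold, with adjusted p-values between 6.32e-10 and 4.91e-08. All 4 were called here too, where 5.9% of all genes were higher. Each of these calls was kept in all 14 alternative fits, leaving out each library in turn included. In whole seedlings a change in the number of cells of a type cannot be told apart from a change in RNA per cell. The summed level of 6 root markers was 45.1 to 48.8 CPM in wild-type AA libraries at 24 h and 107 to 109 CPM in MS, and 31.2 to 36.4 CPM against 60.2 to 79.6 CPM in ein2-5, with no root marker at 0. Of the 5 leaf markers none was at 0, and their sum in wild type was 42706 to 44548 CPM with AA and 51624 to 53236 CPM with MS. In ein2-5 the leaf sum was 37297 to 40005 CPM with AA and 43439 to 50923 CPM with MS. The part of these shifts in the members' rise was not tested.

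At 3 h of AA no member was called in wild type. BHLH38 read 0.923, 1.29 and 2.37 CPM with AA and 1.75, 2.19 and 1.73 CPM with MS, and BHLH39 read 3.84, 5.11 and 4.90 CPM against 4.10, 4.73 and 3.34 CPM. BHLH100 read 0.997, 1.33 and 1.95 CPM against 1.70, 3.12 and 2.11 CPM, and BHLH101 read 0.591, 1.06 and 1.45 CPM against 0.487, 0.981 and 0.338 CPM. The AA and MS libraries overlapped for every member. The changes were -0.31 ± 0.48, 0.19 ± 0.30, -0.69 ± 0.49 and 0.79 ± 0.43, and 0 of 4 were called by edgeR, 0 had an unadjusted p under 0.05 and 0 were called by DESeq2, where 10% of all genes were called in either direction. The 95% intervals still reached from -1.28 to 0.67 for BHLH38 and from -0.09 to 1.67 for BHLH101, so changes within these bounds are not excluded. AOX1A had risen at this time, as given above.

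In ein2-5 at 3 h BHLH39 was higher with AA, at 6.48, 5.92 and 7.03 CPM against 2.71, 4.19 and 2.10 CPM, a change of 1.10 ± 0.30 (adjusted p = 0.0114) in groups that did not overlap. It was the 1 member called, where 6.62% of all genes were called higher. The call was lost without replicate 3 of the MS group, the library that stood furthest from its group mates (0.91, adjusted p = 0.0768). BHLH100 had 0.736, 0.527 and 1.94 CPM with AA and 2.67, 3.58 and 1.73 CPM with MS, and its change of -1.33 ± 0.51 did not pass (adjusted p = 0.086). Without replicate 3 of the AA group, the 1 AA library above an MS library, it was -2.06 and passed (adjusted p = 0.0259). BHLH38 (3.22, 2.19 and 3.43 CPM against 2.59, 3.39 and 1.32 CPM) and BHLH101 (0.806, 1.298 and 1.293 CPM against 0.903, 1.45 and 0.535 CPM) overlapped between the groups, with changes of 0.27 ± 0.43 and 0.21 ± 0.39.

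The difference between the AA effect at 24 h and that at 3 h was tested directly and was positive for all 4 members in each genotype. In wild type it was 5.56 ± 0.70 for BHLH38, 3.92 ± 0.43 for BHLH39, 5.98 ± 0.68 for BHLH100 and 3.95 ± 0.60 for BHLH101, where 2.55% of all genes were called higher. In ein2-5 it was 4.15 ± 0.61, 2.48 ± 0.42, 6.11 ± 0.65 and 2.65 ± 0.49, where 4.3% of all genes were. The largest adjusted p-value of these 8 was 0.000432, and each passed in all 20 alternative fits. The labels also call the time point a batch, and each AA effect was taken within its own time point.

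**Figure D2:**
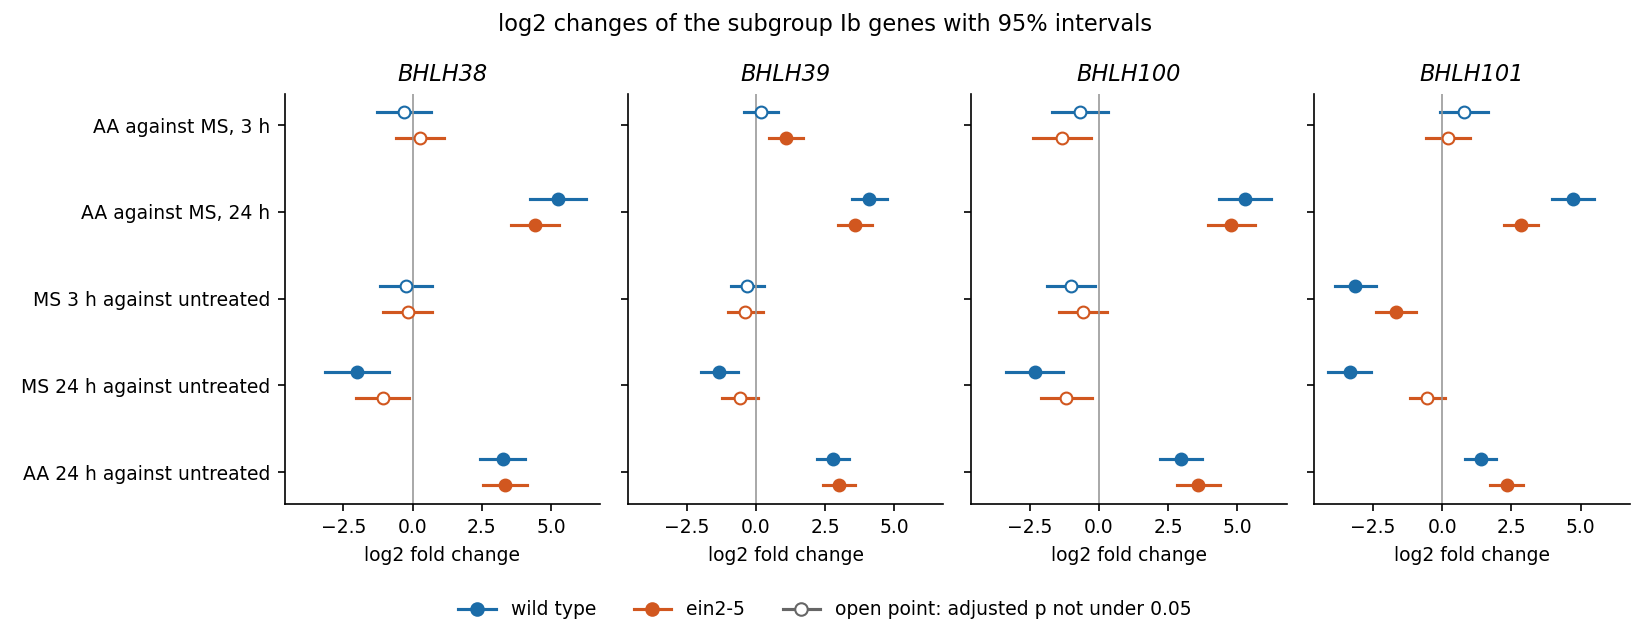
Log2 fold changes (points) with 95% intervals (lines) of the 4 genes for AA against MS, MS against untreated and AA at 24 h against untreated. Blue is wild type, orange is ein2-5, and open points have an adjusted p of 0.05 or more. The 24 h AA changes lie between 2.86 and 5.29, those at 3 h lie between -1.33 and 1.10 with BHLH39 in ein2-5 as the 1 call, and MS against untreated is negative for BHLH101 at 3 h in both genotypes.

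The effect of AA was not shown to differ between the genotypes for any member. At 3 h the difference, ein2-5 minus wild type, was 0.58 ± 0.64 for BHLH38, 0.92 ± 0.43 for BHLH39, -0.64 ± 0.72 for BHLH100 and -0.58 ± 0.58 for BHLH101. With edgeR 0 of 4 were called, 1 (BHLH39) had an unadjusted p under 0.05 and DESeq2 called 0, where 0.0706% of all genes were called. At 24 h the differences were -0.83 ± 0.70, -0.52 ± 0.43, -0.51 ± 0.65 and -1.87 ± 0.49. With edgeR 0 of 4 were called, where 0.296% of all genes were, and 1, BHLH101, had an unadjusted p under 0.05. Its adjusted p of 0.0964 ranged from 0.0177 (DESeq2) to 0.258 over the alternatives, and without replicate 1 of ein2-5 with AA at 24 h the difference was -2.28 (adjusted p = 0.0233). The 95% interval was -2.87 to -0.87 for BHLH101, while those of the other members included 0. At 24 h ein2-5 differed from wild type for BHLH101 by 2.02 ± 0.41 in MS and by 0.15 ± 0.26 with AA. The MS libraries are shared with the difference in the drop from untreated to MS given below, so the 2 results are not separate evidence.

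With AA at 24 h itself ein2-5 differed from wild type by 0.41 ± 0.34 for BHLH38, -0.14 ± 0.25 for BHLH39, 0.42 ± 0.32 for BHLH100 and 0.15 ± 0.26 for BHLH101, and the libraries of the genotypes overlapped for all 4. None was called by edgeR or DESeq2 and 0 had an unadjusted p under 0.05, where 9.91% of all genes were called. The 95% intervals ran from -0.64 to 0.37 for BHLH39 and from -0.28 to 1.10 for BHLH38. With AA at 3 h 0 of 4 were called by either tool, where 7.82% of all genes were. BHLH38, at 0.95 ± 0.45, was the 1 member with an unadjusted p under 0.05. With MS at 3 h 0 of 4 were called by either tool and 0 had an unadjusted p under 0.05, where 10.4% of all genes were called. In untreated seedlings 0 of 4 were called by either tool, where 4.33% of all genes were. There BHLH101 read 3.51, 2.54 and 3.17 CPM in ein2-5, all below the 5.84, 4.15 and 5.81 CPM of wild type, with a change of -0.78 ± 0.29 (adjusted p = 0.154) and the 1 unadjusted p under 0.05.

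In 1 library, replicate 1 of ein2-5 with AA at 24 h, all 4 members stood above the other 2 replicates. Against their mean on the log2 CPM scale it was higher by 1.49 for BHLH38, 1.23 for BHLH39, 1.20 for BHLH100 and 0.97 for BHLH101, while 1.35% of all tested genes exceeded 1. EIN2 and AOX1A in the same library differed from the others by 0.02 and 0.10. Over all tested genes the median difference of this library from the others was -0.0049, so either side of 0 was common. Of the FIT-independent iron deficiency genes described below, all 12 were higher in that library, from 0.27 for UP1 up to 1.50 for IMA1. Of the iron storage genes all 10 were lower, from -0.02 for YSL3 down to -1.37 for VTL1. These genes were looked at after the members' values were seen. In wild type with AA at 24 h, replicate 1 was also the highest of the 3 for every member. Without the ein2-5 library, the changes from MS in ein2-5 were 3.74 for BHLH38, 3.05 for BHLH39, 4.26 for BHLH100 and 2.45 for BHLH101, and each remained called.

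**Figure D3:**
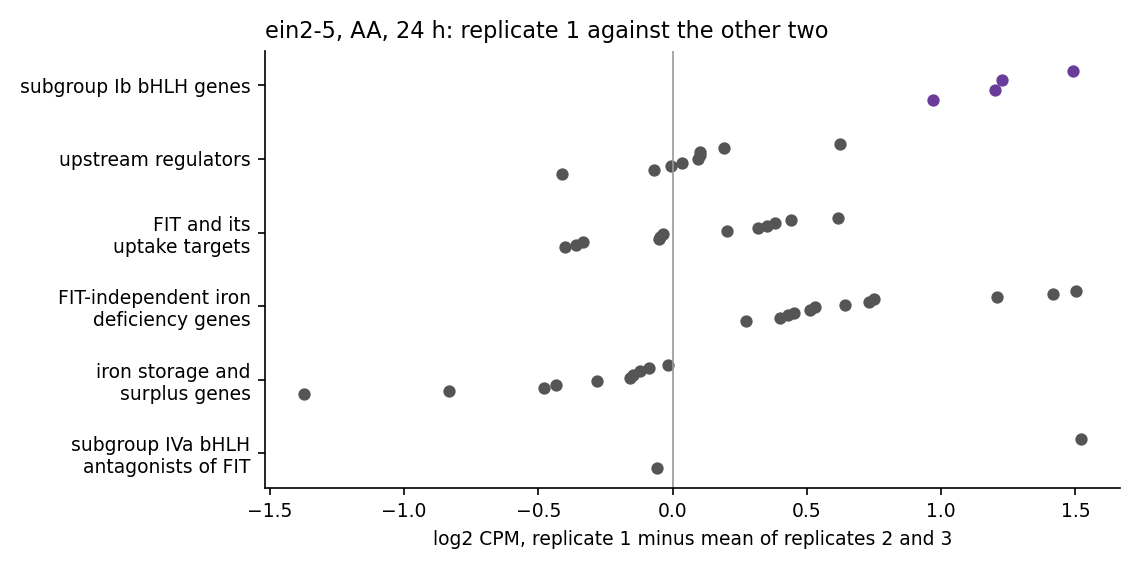
Log2 CPM of replicate 1 minus the mean of replicates 2 and 3 in ein2-5 with AA at 24 h, 1 point per gene, by gene list. The 4 subgroup Ib genes (purple) lie between 0.97 and 1.49, the FIT-independent genes are all above 0 and the storage genes are all below 0. The median over all tested genes was -0.0049.

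In wild type all 4 members were lower after 24 h in MS than in untreated seedlings, and BHLH101 was lower already at 3 h. In ein2-5 the 1 call was BHLH101 at 3 h. In wild type it went from 5.84, 4.15 and 5.81 CPM untreated to 0.487, 0.981 and 0.338 CPM at 3 h, a change of -3.14 ± 0.37 (8.79-fold lower, adjusted p = 3.47e-08). In ein2-5 it went from 3.51, 2.54 and 3.17 CPM to 0.903, 1.45 and 0.535 CPM, a change of -1.66 ± 0.35 (3.16-fold lower, adjusted p = 0.000373). In neither genotype did the libraries overlap. BHLH101 was the 1 member of 4 called lower at 3 h in each genotype, where 17.4% of all genes were lower in wild type and 14.4% in ein2-5. BHLH38 (-0.23 ± 0.46 in wild type and -0.18 ± 0.43 in ein2-5) and BHLH39 (-0.30 ± 0.30 and -0.38 ± 0.32) overlapped with the untreated libraries. BHLH100 stood at -1.004 ± 0.429 (adjusted p = 0.0726) in wild type and -0.58 ± 0.43 in ein2-5. In wild type it passed without replicate 2 of the untreated group (-1.25, adjusted p = 0.0362) and when only the libraries compared were fitted (-0.99, adjusted p = 0.0152).

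At 24 h in MS all 4 members were lower than untreated in wild type, where 11.1% of all genes were. BHLH38 fell from 2.24, 1.08 and 3.19 CPM to 0.443, 0.641 and 0.564 CPM (-2.00 ± 0.57, adjusted p = 0.0109). BHLH39 fell from 5.36, 4.47 and 5.15 CPM to 2.08, 1.83 and 2.08 CPM (-1.32 ± 0.33, adjusted p = 0.00387). No library of the covered seedlings reached an untreated one for these genes. BHLH100 fell from 5.80, 2.83 and 5.21 CPM to 0.488, 1.14 and 1.13 CPM (-2.32 ± 0.50, adjusted p = 0.000953), and BHLH101 to 0.665, 0.458 and 0.434 CPM (-3.33 ± 0.38, adjusted p = 6.72e-08), again without overlap. The call of BHLH38 was lost without replicate 1 of the MS group (adjusted p = 0.051) or replicate 3 of the untreated group (adjusted p = 0.0926). Untreated and covered seedlings also differ in time and labelled batch, which cannot be told apart from the covering.

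In ein2-5 at 24 h in MS, BHLH38, BHLH39 and BHLH100 were spread more widely than in wild type. Against untreated seedlings 0 of 4 members were called by edgeR or by DESeq2, where 15% of all genes were called. BHLH38 and BHLH100 had an unadjusted p under 0.05. BHLH38 went from 3.17, 2.54 and 2.58 CPM to 2.29, 0.867 and 0.730 CPM (-1.09 ± 0.47, adjusted p = 0.128), and BHLH100 from 4.02, 4.75 and 3.21 CPM to 3.30, 1.06 and 0.902 CPM (-1.19 ± 0.45, adjusted p = 0.0767). Replicate 1 of the MS group was the highest for both. Without it the changes were -1.77 (adjusted p = 0.0329) and -2.01 (adjusted p = 0.00858). BHLH39 stood at -0.58 ± 0.32 and BHLH101 at -0.53 ± 0.32. The MS and untreated libraries of BHLH38 and BHLH101 did not overlap, and those of BHLH39 and BHLH100 did. No share over all genes is given for this overlap, so it is a description only.

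BHLH101 was the 1 member called between the genotypes in MS at 24 h. It read 2.21, 1.70 and 2.49 CPM in ein2-5 and 0.665, 0.458 and 0.434 CPM in wild type, and the groups did not overlap. The change was 2.02 ± 0.41, or 4.07-fold (adjusted p = 0.000891). Of all genes 6.74% were called higher in ein2-5 in MS at 24 h. BHLH38, at 1.24 ± 0.61, also did not overlap between the genotypes but was not called (adjusted p = 0.221). The drop from untreated to MS at 24 h was smaller in ein2-5 than in wild type by 2.80 ± 0.50 for BHLH101 (adjusted p = 0.000526), which passed in all 20 alternative fits with values between 2.68 and 3.02. It was the 1 member of 4 called, where 3.19% of all genes were called higher. BHLH38 (0.91 ± 0.76), BHLH39 (0.74 ± 0.46) and BHLH100 (1.14 ± 0.69) lay on the same side without passing. At 3 h none of the 4 passed with edgeR or DESeq2, where 1.47% of all genes did, and BHLH101, at 1.48 ± 0.53 (adjusted p = 0.167), was the 1 member with an unadjusted p under 0.05.

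From 3 h to 24 h in MS, wild type showed a fall of BHLH38 (-1.77 ± 0.58, adjusted p = 0.032) and BHLH39 (-1.02 ± 0.34, adjusted p = 0.0328), where 9.28% of all genes were lower. In ein2-5 BHLH101 rose by 1.13 ± 0.36 (adjusted p = 0.0236), where 10.1% of all genes were higher. The time points are also labelled as batches, which cannot be told apart from the time in MS. BHLH100 in wild type stood at -1.32 ± 0.55 in libraries that did not overlap (adjusted p = 0.0992), and it passed when only the libraries compared were fitted (adjusted p = 0.0106). BHLH38 in ein2-5 stood at -0.91 ± 0.48 (adjusted p = 0.193) and passed without replicate 1 of MS at 24 h (-1.60, adjusted p = 0.0414). With 1 library of the compared groups left out, the wild-type call of BHLH38 was lost for each of the 6 libraries. The wild-type call of BHLH39 was lost for 5 of them, all but replicate 3 of MS at 3 h. The ein2-5 call of BHLH101 was lost for replicates 1 and 3 of either time.

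Set against untreated seedlings, AA at 24 h left the members higher, with the fall in MS included. In wild type the changes were 3.25 ± 0.40 for BHLH38, 2.79 ± 0.28 for BHLH39, 2.96 ± 0.37 for BHLH100 and 1.40 ± 0.27 for BHLH101, and all 4 were called higher, where 14.6% of all genes were. In ein2-5 they were 3.34 ± 0.39, 3.00 ± 0.28, 3.59 ± 0.38 and 2.33 ± 0.29, all called, where 13.1% of all genes were higher. The comparisons with untreated and with MS share their AA libraries, so they are not separate evidence. In the order of group means, both AA 24 h groups were the highest for every member and wild type with MS at 24 h was the lowest. For BHLH38 and BHLH39 it was followed by ein2-5 with MS at 24 h, for BHLH100 by ein2-5 with AA at 3 h, and for BHLH101 by wild type with MS at 3 h. Both AA 24 h groups overlapped each other and stood clear of the rest. Below them, neighbours in the order overlapped, with 5 exceptions, for which no share over all genes is given. These were wild type and ein2-5 in MS at 24 h for BHLH38, untreated wild type and ein2-5 with AA at 3 h for BHLH39, and for BHLH101 the steps from ein2-5 with AA at 3 h to ein2-5 with MS at 24 h, to untreated ein2-5 and to untreated wild type.

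Over the 10 group means of log2 CPM, the members' profiles were correlated with one another at r = 0.83 to 0.96, highest for the tandem pair BHLH38 and BHLH39 and lowest for BHLH39 and BHLH101. After each group's mean was removed, r over the 30 libraries was 0.49 to 0.85, highest for BHLH38 and BHLH100 and lowest for BHLH100 and BHLH101. These values are descriptions, and the libraries that they rest on are shared by all members.

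BHLH38 and BHLH101 overlap other genes at their 3′ ends, on the opposite strand, and the counting ignored strand, so read pairs from those bases are uncertain. BHLH38 shares 386 bases with PIP5K4 (AT3G56960), which read 3.60 to 8.48 CPM over all libraries and stood at 0.43 ± 0.17 and 0.34 ± 0.17 for AA at 24 h in wild type and ein2-5, not called. BHLH101 shares 79 bases with GLU1 (AT5G04140), an abundant chloroplast glutamate synthase gene that read 953 to 1819 CPM. GLU1 stood at -0.29 ± 0.10 for AA at 24 h in wild type (called) and -0.15 ± 0.10 in ein2-5. In MS at 3 h GLU1 fell by 0.45 and 0.53 on the log2 scale from the untreated level in wild type and ein2-5, where BHLH101 fell by 3.14 and 1.66.

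The genes around the members in the iron response were counted on 5 lists, which share no gene with them. Among 9 upstream regulators, AA at 24 h raised 3 in wild type and 2 in ein2-5, where 6.48% and 5.9% of all genes were higher. BTS, the ubiquitin ligase that limits the response and is itself induced by iron shortage, was higher by 1.59 ± 0.14 and 1.63 ± 0.14. Its relative BTSL1 was higher by 0.73 ± 0.12 and 0.56 ± 0.12, and BHLH115, a subgroup IVc activator, by 0.35 ± 0.07 in wild type. The median of the list was 0.09 in wild type and 0.067 in ein2-5. At 3 h no upstream regulator was higher, and 1 in wild type and 2 in ein2-5 were lower, where 3.8% and 6.22% of all genes were. Over the alternatives these counts ranged from 0 to 1 and from 0 to 3.

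Most FIT-independent iron deficiency genes rose when the members rose. At 24 h of AA 11 of 12 were higher in wild type (median 1.61) and 12 of 12 in ein2-5 (median 1.27). Of all genes 6.48% and 5.9% were higher. OPT3, which loads iron into the phloem, rose by 1.66 ± 0.13 in wild type and 1.52 ± 0.12 in ein2-5. ORG1 rose by 2.60 ± 0.22 and 2.202 ± 0.213. The peptide genes IMA2 and IMA3 rose by 4.03 ± 0.35 and 3.87 ± 0.36 in wild type and IMA2 by 3.11 ± 0.31 in ein2-5. IMA2 read 21.9, 15.0 and 15.8 CPM with AA and 1.20, 0.870 and 1.13 CPM with MS in wild type, with no overlap. At 3 h 0 of 12 were called in wild type by edgeR or DESeq2, with 3 at an unadjusted p under 0.05, and 1 of 12, UP1, was higher in ein2-5. That call was lost in 4 of 15 alternatives, among them those without replicate 3 of AA or of MS (adjusted p = 0.078 and 0.0957). Of all genes 10% were called in either direction in wild type at 3 h, and 6.62% were called higher in ein2-5. In MS 11 of 12 were lower than in untreated seedlings in wild type at both times (medians -1.40 and -1.85). In ein2-5 8 of 12 were lower at 3 h and 9 of 12 at 24 h (medians -0.78 and -1.10). Of all genes 17.4% and 11.1% were lower in wild type at 3 h and 24 h, and 14.4% and 6.57% in ein2-5. Time and labelled batch differ here too and cannot be told apart from the covering. OPT3 fell by 1.77 and ZIF1, a vacuolar transporter, by 1.86 in wild type at 3 h.

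Among FIT and its uptake targets, 5 of 12 were lower and 2 higher at 3 h of AA in wild type, when no member was called (median -0.67). Of all genes 3.8% were lower there and 6.2% higher. Without replicate 1 of AA or replicate 2 of MS 3 of 12 were lower, and over all alternatives 3 to 6 were. FIT fell by 1.28 on the log2 scale, at 4.91, 3.60 and 4.97 CPM against 11.3, 11.9 and 9.63 CPM. IRT1, the main iron transporter of root cells, stood at -1.27 ± 0.21. In ein2-5 6 were lower (4 to 6 over the alternatives) and 2 higher (1 to 2), where 6.22% of all genes were lower and 6.62% higher (median -0.68), with FIT at -1.02 ± 0.14 and IRT1 at -0.95 ± 0.21. The summed root markers were 57.9 to 65.9 CPM with AA and 96.1 to 111 CPM with MS in wild type at 3 h, and 48.3 to 57.8 CPM against 79.4 to 92.9 CPM in ein2-5, and their part in these falls was not tested. At 24 h of AA 6.48% of all genes were higher and 6.5% lower in wild type, and 5.9% and 7.95% in ein2-5. Of the 12 listed genes, 2 were higher then in wild type and none lower (median 0.23). In ein2-5 3 were higher and 1 lower (median -0.02). Those higher at 24 h included F6'H1 (1.97 ± 0.09 and 1.13 ± 0.09), which makes the coumarins that mobilise iron, and their exporter ABCG37 (0.83 ± 0.11 and 0.76 ± 0.10), whereas FRO2, the root ferric reductase, was the gene called lower in ein2-5 (-0.78 ± 0.24, adjusted p = 0.0277). That call was lost in 5 of 15 alternatives, among them those without replicates 2 or 3 of AA or 1 or 2 of MS, where the adjusted p was at most 0.143. F6'H1 was the 1 listed gene whose AA effect at 24 h differed between the genotypes (-0.84 ± 0.13, adjusted p = 0.000506).

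Most iron storage and surplus genes fell when the members rose. At 24 h of AA 7 of 10 were lower in wild type (median -0.997) and 7 of 10 in ein2-5 (median -0.90), and none was higher. Of all genes 6.5% were lower in wild type and 7.95% in ein2-5. Without replicate 1 of ein2-5 with AA at 24 h, 6 of 10 were lower in ein2-5 and 11 of 12 FIT-independent genes were higher. The ferritin genes FER4 and FER3 fell by 1.57 and 0.69 in wild type and by 1.25 and 0.52 in ein2-5, and FER1 stood at -1.52 ± 0.21 in wild type. VTL5, a vacuolar iron transporter-like gene, stood at -1.63 ± 0.19 and -1.11 ± 0.20. FER1 read 131, 121 and 141 CPM with AA and 372, 358 and 391 CPM with MS in wild type. At 3 h 1 of 10 was higher (YSL3) and 1 lower (VTL1, lost in 4 of 15 alternatives, those without replicates 1 or 2 of AA or 1 of MS included) in wild type, and 0 of 10 were called in ein2-5 by edgeR or DESeq2, with 2 at an unadjusted p under 0.05. Of all genes 6.2% were higher and 3.8% lower in wild type at 3 h, and 6.62% and 6.22% in ein2-5. Of the 4 subgroup IVa bHLH genes, whose proteins promote breakdown of FIT, 2 were abundant enough to be tested. On the log2 scale BHLH20 fell by 0.50 in wild type and by 0.70 in ein2-5 with AA at 3 h, and at 24 h 0 of 2 were called in either genotype by edgeR or DESeq2, with 0 at an unadjusted p under 0.05. At 24 h 6.48% of all genes were higher and 6.5% lower in wild type, and 5.9% and 7.95% in ein2-5.

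**Figure D4:**
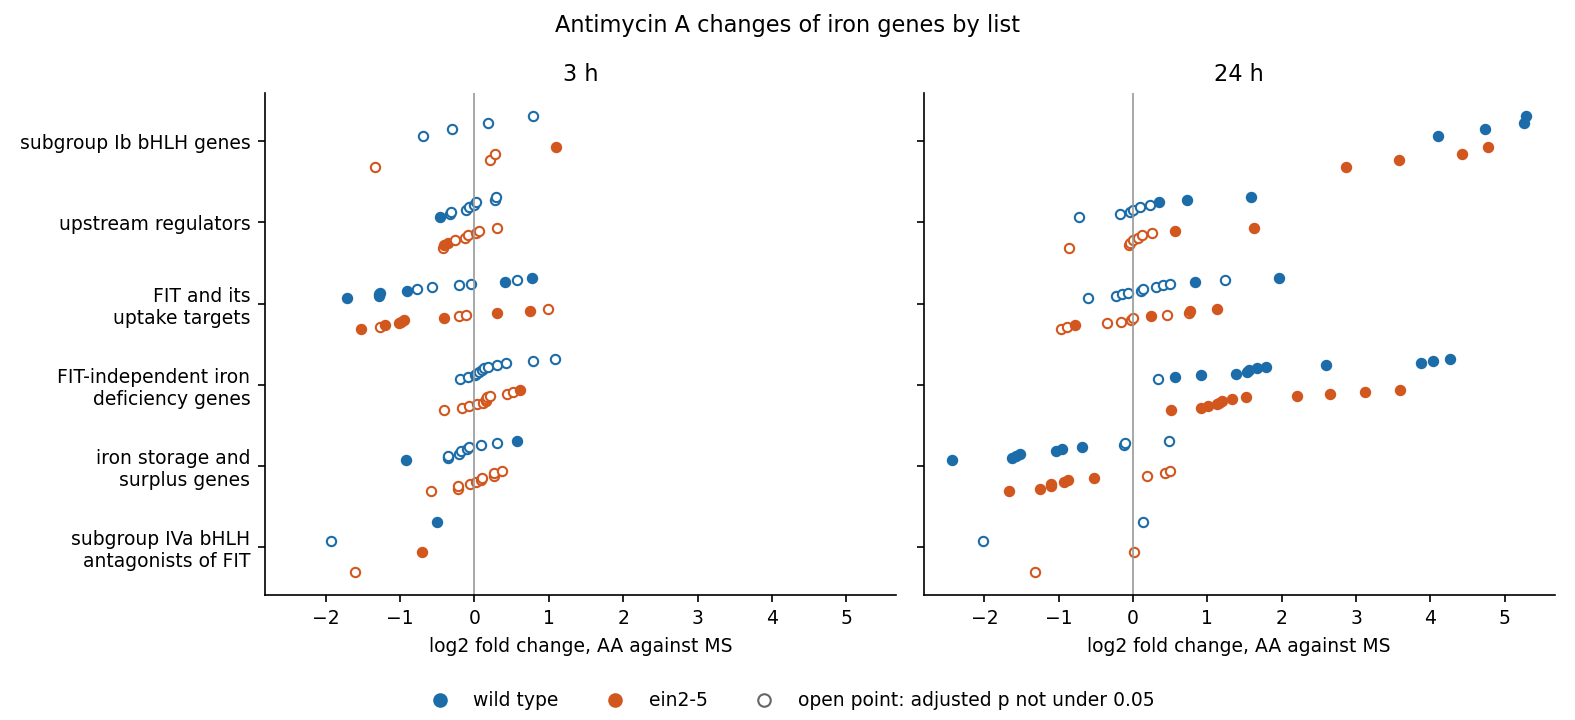
Log2 fold changes of AA against MS at 3 h (left) and 24 h (right), 1 point per tested gene, for the subgroup Ib genes and the 5 iron gene lists. Blue is wild type, orange is ein2-5, and open points have an adjusted p of 0.05 or more. At 24 h the subgroup Ib genes lie between 2.86 and 5.29, 11 or 12 of the 12 FIT-independent genes are higher and 7 of the 10 storage genes are lower.

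The genes whose pattern over the 10 group means was most like the mean of the members' were sought among 16422 others with a group mean of at least 5 CPM. LOX1, a lipoxygenase gene, was first (r = 0.98), followed by AT3G15590, IMA2 (r = 0.96), AT1G13609, AT1G77030, AT2G25910, AT5G15810 and TOZ, with ATC next at r = 0.94. LOX1 read 147, 153 and 137 CPM with AA and 53.6, 56.6 and 51.9 CPM with MS in wild type at 24 h, a change of 1.43 ± 0.08, smaller than that of any member. AT1G13609 rose by 6.27 ± 0.50 in the same comparison. For single members the closest were AT4G16630 for BHLH38, ELO3 for BHLH39, AT1G77030 for BHLH100 and NUP155 for BHLH101. A correlation takes no account of the size of a change. For AA against MS at 24 h in wild type, AT4G16630 stood at 0.45 ± 0.10 and AT1G77030 at 0.44 ± 0.08. ELO3 stood at 0.17 ± 0.09 and NUP155 at 0.20 ± 0.08 there, and neither was called in either genotype. Of the 38 listed iron genes among the candidates, 5 stood within the first 50, namely IMA2, IMA3, IMA1, ORG1 and NRAMP4. At the other end FER4 (r = -0.91) and NEET, which encodes an iron-sulfur protein (r = -0.96), ranked 16401 and 16420, and these and the other ranks were named after they were seen. With so few points, the order is a description, and with Spearman's rho 2 of the first 8 genes remained.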

How the data were processed

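Poly(A) RNA of whole seedlings was sequenced as paired ends on a NovaSeq X Plus, per the labels' protocols. The authors deposited expected counts per gene, which their file header attributes to featureCounts 2.0.3, run on read pairs without regard to strand and with pairs that map to several places counted in part at each. Per the submitters' processing notes the build was TAIR10 and the tools included HISAT2, SAMtools, DESeq2, DESeq and featureCounts. Of the deposited values 6.31% were not whole, and all were rounded to whole counts. All 30 columns were used, and totals were 21219655 to 32603880 read pairs.

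Genes were kept by filterByExpr with a minimum count of 10, scaled by TMM factors (0.958 to 1.06), and fitted with 1 mean per group in edgeR 4.0.16 (R 4.3.3), whose quasi-likelihood F test was applied to 23 comparisons. The SE was the log2 fold change divided by the square root of F. Levels are CPM, and log2 CPM used a prior count of 2. Alternatives were RLE and upper-quartile factors, other filters, counts not rounded, a replicate block, DESeq2 1.42.0, a fit restricted to the groups of 1 comparison, a threshold of 0.01 for the adjusted p, and each library left out in turn. The code was tested on simulated data. Libraries with the same replicate number were no closer than others (mean r = -0.0041 against 0.0022 over pairs of libraries), so samples were taken as unpaired.

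The 4 members, the gene lists, the comparisons and the promoter motifs were chosen with earlier results of these data known, and the lists come from textbook knowledge. Named were all members, EIN2, AOX1A, up to 4 called genes per list and comparison by smallest adjusted p, and the 8 genes most like the members with the next one and the closest to each member. Sequences and positions come from RefSeq TAIR10.1 and were read with Python 3.11.15 and Biopython 1.88. The deposited counts carry no coordinates, so none were converted.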

Additional observations from a re-analysis of the deposited data

Results flagged for a closer look

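The effect of AA differed between 3 h and 24 h for each member in each genotype, by a test of the difference itself with edgeR's quasi-likelihood test. In wild type the AA effect at 24 h exceeded that at 3 h by 5.98 log2 units for BHLH100, 5.56 for BHLH38, 3.95 for BHLH101 and 3.92 for BHLH39. In ein2-5 the excess was 6.11 for BHLH100, 4.15 for BHLH38, 2.65 for BHLH101 and 2.48 for BHLH39. The change from untreated seedlings to MS at 24 h differed between the genotypes for BHLH101, by 2.80 log2 units, with the larger fall in wild type. Groups of 3 libraries are too small for a test of single outlying samples.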

How the results depend on the processing

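Of 1524 recomputed values of the members' changes, 1467 kept their direction and side of the threshold, 24 lost a call, 9 gained one and 24, none of them called, changed sign. The number of members called moved by more than 1.5 times, or from 0, in 6 comparisons. In addition, for MS at 24 h against untreated in wild type, it went from 4 to 3, with BHLH38 lost, at an adjusted p under 0.01 and without replicate 1 of MS or replicate 3 of the untreated group. For AA at 3 h in ein2-5 it was 0 at an adjusted p under 0.01 and 0 to 2 with a library left out. For MS at 3 h against untreated in wild type it was 2 with only the libraries compared and 1 to 2 with a library left out. For MS at 24 h against untreated in ein2-5 it was 0 to 2 with a library left out. For the AA by genotype difference at 24 h it was 1 with DESeq2 and 0 to 1 with a library left out. For MS at 24 h against 3 h it was 0 at an adjusted p under 0.01 in each genotype, 0 in ein2-5 and 3 in wild type with only the libraries compared, and 0 to 1 in either with a library left out. With Spearman's rho 2 of the 8 most similar genes remained. The causes were not tested.

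With a library left out, uncalled changes crossed 0 as follows. AA at 3 h in ein2-5 gave -0.008 to 0.61 for BHLH38 and -0.061 to 0.65 for BHLH101. Between genotypes, BHLH100 gave -0.068 to 0.49 in MS at 3 h and BHLH101 -0.17 to 0.44 with AA at 3 h. With AA at 24 h the ranges were -0.28 to 0.73 for BHLH38, -0.67 to 0.16 for BHLH39, -0.10 to 0.75 for BHLH100 and -0.25 to 0.35 for BHLH101. MS at 3 h against untreated gave -0.54 to 0.20 in wild type and -0.49 to 0.12 in ein2-5 for BHLH38. The AA by genotype difference of BHLH100 at 24 h gave -1.03 to 0.32. The MS by genotype difference at 3 h gave -0.37 to 0.37 for BHLH38 (-0.011 with only the libraries compared) and -0.40 to 0.13 for BHLH39. MS at 24 h against 3 h gave -0.48 to 0.32 for BHLH101 in wild type and -0.57 to 0.12 for BHLH39 in ein2-5.

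The replicate block changed no call of a member. For BHLH101 in MS at 24 h against 3 h in ein2-5 it gave 1.12 in place of 1.13. Of 135 pairs of libraries with the same number, 5 had r over 0.1, and 5 of 30 libraries were closest to their own number. The block took the count of all genes called for the AA by genotype difference at 3 h from 15 to 8. That count was 24 without rounding, 62 with DESeq2, 5 with only the libraries compared and 3 to 9 over the left-out libraries that moved it by more than 1.5 times. At 24 h it was 161 with DESeq2 in place of 63, and 31 to 41 over such left-out libraries. For the MS by genotype difference at 3 h it was 148 to 543 over such left-out libraries, 503 with DESeq2 and 87 with only the libraries compared, in place of 313. Leaving out 1 library also took the count from 2945 to 1949 for AA at 24 h in ein2-5 (without replicate 1 of AA). Between genotypes it went from 921 to 588 in untreated seedlings (without wild-type replicate 1), from 2420 to 1592 in MS at 24 h (without wild-type replicate 1) and from 1662 to 1073 with AA at 3 h (without ein2-5 replicate 3). It went from 2215 to between 1260 and 1289 in MS at 3 h (without ein2-5 replicate 3 or wild-type replicates 2 or 3) and from 2107 to 1340 or 1371 with AA at 24 h (without ein2-5 replicate 2 or wild-type replicate 1). The shares of all genes called rest on these counts. With only the libraries compared it also went from 2215 to 771 for genotypes in MS at 3 h, from 2730 to 1728 for AA at 3 h in ein2-5, from 3191 to 2116 for MS at 24 h against untreated in ein2-5 and from 4361 to 2177 for MS at 24 h against 3 h in ein2-5. At an adjusted p under 0.01 it fell to between 20.0% and 66.4% of its value in 20 of 23 comparisons. The lowest counts of the 4 members in any library were 8 to 40, which limits what could be detected in the groups where they were low.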

Other observations

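BHLH20, a subgroup IVa bHLH gene whose protein promotes breakdown of FIT, was called higher in ein2-5 than in wild type in the 4 groups of covered seedlings, at 3 h of AA with a call that depended on single libraries. In MS at 24 h it read 29.5, 27.1 and 24.9 CPM in ein2-5 and 14.8, 14.9 and 16.3 CPM in wild type. The difference was 0.82 ± 0.11 there, 0.57 ± 0.11 in MS at 3 h, 0.37 ± 0.11 with AA at 3 h and 0.70 ± 0.11 with AA at 24 h. The call with AA at 3 h (adjusted p = 0.038) was lost in 7 of 15 alternatives, those without replicates 1 or 2 of ein2-5 or any 1 of the wild-type replicates included, and without replicate 1 of ein2-5 the difference was 0.18 (adjusted p = 0.441). In untreated seedlings it was 0.22 ± 0.11, in libraries that overlapped, and did not pass (adjusted p = 0.308).

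The change from untreated to MS at 24 h, which differed between the genotypes for BHLH101, also differed for listed iron genes. The difference was 0.69 ± 0.17 for OPT3, 0.84 ± 0.22 for ZIF1, 0.71 ± 0.21 for FRO3 and 0.60 ± 0.15 for BHLH20. None of these calls held in all 21 alternatives. FRO3 was lost in 15, ZIF1 in 6, BHLH20 in 4 and OPT3 in 3. Of the 9 upstream regulators 2 were called higher, where 3.19% of all genes were, and over the alternatives 1 to 2 were. URI, 1 of these regulators, stood at 0.65 (adjusted p = 0.0124), and its call was lost in 2 of the 21. Of the 12 FIT-independent genes 3 were called, where 3.19% of all genes were higher, and over the alternatives 0 to 7 were. The count was 0 without replicate 3 of wild type in MS at 24 h and 1 without replicate 1 of that group, replicates 1 or 2 of ein2-5 in MS at 24 h or replicate 1 of untreated wild type.

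AT2G41250, the gene next to BHLH100 on the same strand in the order of annotated genes, is given for comparison with it. In MS at 3 h it fell by 2.73 on the log2 scale in wild type and by 2.75 in ein2-5, and with AA at 24 h it stood at -0.28 ± 0.14 and -0.24 ± 0.14 against MS, not called. Neighbours were looked at after the members' values were seen.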
